A study of Homo sapiens with 7 samples.

Results

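The peaks described here were the binding sites of CTCF that lay inside introns and carried a G-quadruplex (G4) motif. They were found in K562 cells, a human leukaemia cell line of erythroid character, that had been treated with pyridostatin (PDS) at 10 μM for 24 h or left untreated (control). CTCF was captured by chromatin immunoprecipitation and sequenced (ChIP-seq) in 2 control and 2 PDS samples, with IgG precipitates as background (1 control sample and 2 PDS samples). The labels named no genetic change in any group, and PDS was the only treatment they named. The authors deposited 1 list of peaks per condition, called on both CTCF samples together, with coordinates of the hg19 (GRCh37) genome.

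A peak was counted as a member when its centre lay inside a protein-coding gene, outside every annotated exon and more than 1 kb from every start and 3′ end of a coding gene, and when the peak overlapped a G4 motif by at least 1 bp. The motif was 4 tracts of G, each at least 3 bases long, joined by loops from 1 to 7 nt, and both strands were searched. On chromosomes 1 to 22 and X, 1515 of 33069 control peaks (4.58%, 95% Wilson interval 4.36 to 4.81) and 1712 of 32893 PDS peaks (5.20%, 4.97 to 5.45) met the rule, 3227 of 65962 in all. They were 11.8% of the 12795 intronic control peaks (11.3 to 12.4) and 14.0% of the 12254 intronic PDS peaks (13.4 to 14.6). The motif was present in 16.0% of all control peaks and 17.1% of all PDS peaks. Each list is the outcome of 1 peak call without values per sample, so peaks are not replicates, the read depth behind them is unknown, and all intervals given here cover counting error only.

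CTCF is a zinc-finger protein that binds a long, partly G-rich consensus and halts cohesin at the anchors of chromatin loops. A G4 is a stack of planar guanine tetrads that a single DNA strand can form where runs of G lie close together, and the opposite strand then carries the runs of C. PDS is a small molecule that binds and stabilises such stacks. CTCF sites within introns can serve as loop anchors and are known to affect splicing of nearby exons when bound.

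To show what the motifs looked like, the motif nearest the centre of some of the strongest members of each list by fold enrichment is written out first, 5′ to 3′ on its G-rich strand, with the runs of G in capitals and the loops in lower case.
ATP5MJ, chr14:104388001-104388026 (+): GGGGcGGGGagaGGGtgcgttaGGGG
CACNA2D4, chr12:1905300-1905327 (+): GGGtgaGGGtggcGGGGGcaggcccGGG
MYO18A, chr17:27475963-27475984 (+): GGGcGGGGccaaGGGGGtGGGG
TPCN2, chr11:68869070-68869093 (-): GGGtaccaGGGcctGGGcactGGG
These 4 motifs differed in how tightly the runs were packed. The motif in MYO18A kept a loop of a single base on both sides of a longer one, whereas that in TPCN2 had only runs of the shortest length.

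The motifs of the strongest members found in 1 list alone are shown because they mark sites at which the lists had no overlapping peak. PDXK and SZRD1 come from the control list, COL15A1 and TTI1 from the PDS list.
PDXK, chr21:45148934-45148955 (-): GGGtgcGGGGtGGGGGGctGGG
SZRD1, chr1:16694040-16694063 (-): GGGtggcGGGtGGGGcgccccGGG
COL15A1, chr9:101779193-101779213 (+): GGGGaGGGGctgtGGGacGGG
TTI1, chr20:36621587-36621612 (-): GGGGGaGGGGcaGGGGatggtGGGGG
A last set is shown for regulators and channel genes with a member in both lists, 1 gene from each list of genes described further on that had any.
YY1, chr14:100706565-100706590 (-): GGGcgcGGGGagcgaGGGcgtcGGGG
HMGA1, chr6:34211508-34211527 (-): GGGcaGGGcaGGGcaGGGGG
UHRF1, chr19:4911778-4911807 (+): GGGGGactgtGGGacctactGGGagtGGGG
GFI1B, chr9:135853061-135853088 (+): GGGagaaggtGGGGagccaGGGGatGGG
KDM2B, chr12:121917076-121917094 (-): GGGGGtGGGGaGGGGcGGG
CACNA1A, chr19:13699981-13700014 (-): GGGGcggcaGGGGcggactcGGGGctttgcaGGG
SHANK1, chr19:51173436-51173456 (-): GGGGaGGGaccgtGGGctGGG
In HMGA1 the loops repeated the same pair of bases, while CACNA1A had the most bases in loops of this set.

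The member of highest fold that held both a motif and the CTCF consensus within 200 bp of sequence at its centre, with a peak in both lists, lay in STAB2, the gene of a scavenger receptor. Its control peak, chr12:104026321-104026980, sat in intron 6 of 68, 45600 bp from the gene start, with a fold of 89.0 over IgG (rank 442 by fold in the list). The PDS peak over it, chr12:104026151-104026950, had a fold of 28.1. The stretch below is the plus strand of chr12:104026501-104026800, and its capitals run from the first base of the G4 motif (chr12:104026532-104026561, G-rich on the minus strand, hence written as runs of C) to the last base of the consensus match (chr12:104026555-104026569).
STAB2: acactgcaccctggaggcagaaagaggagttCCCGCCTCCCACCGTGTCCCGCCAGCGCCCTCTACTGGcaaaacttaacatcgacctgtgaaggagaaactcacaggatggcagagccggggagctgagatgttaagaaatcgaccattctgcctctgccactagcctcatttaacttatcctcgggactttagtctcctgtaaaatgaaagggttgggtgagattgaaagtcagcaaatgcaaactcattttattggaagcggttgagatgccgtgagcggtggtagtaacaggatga
In this plus-strand order, the last bases of the motif were also the first bases of the consensus match, which itself lay on the minus strand. Such an overlap was rare: among the 210 control members with a consensus match at the centre it was found in 7, and among the 210 PDS members in 6.

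The number of intronic peaks with a motif was higher in the PDS list (1712 against 1515), whereas intronic peaks without a motif were fewer (10542 against 11280). The share of intronic peaks with a motif was therefore 2.13 percentage points higher in the PDS list, compared with 1.12 points for intergenic peaks (11.6% and 12.8%) and -0.51 points for peaks at promoters, exons and gene ends (28.8% and 28.3%). By chromosome, the intronic share was higher in the PDS list on 21 of 23 chromosomes and lower on 2. No test was made of this difference, because most peaks of one list were also in the other.

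Fold over IgG, the authors' measure of enrichment, was higher in members than in intronic peaks without a motif. Control members had a median fold of 31.7 (quartiles 22.1 and 44.2, range 4.15 to 151.5), against 24.6 for control intronic peaks without a motif. PDS members had a median of 18.1 (13.5 and 23.4, range 3.68 to 80.5), against 16.5. Folds of the lists are not on one scale, since the labels tie each to the IgG of its own condition (1 sample for the control and 2 for PDS, and which of them entered the call is not given in the sources used here), and only ranks within a list are compared below. By p-value, the median member stood at percentile 71.7 of the control list and percentile 76.2 of the PDS list, where intronic peaks without a motif stood at 43.5 and 42.1. The strongest 10% of a list by p-value held 21.0% of the control members and 23.8% of the PDS members, and the strongest 10% by fold held 15.2% and 11.1%. These traits were not particular to introns. Intergenic peaks with a motif had 23.5% (control) and 26.9% (PDS) in the strongest 10% by p-value and 20.6% and 15.8% by fold. Their median folds were 34.5 and 19.4 and their median widths 540 and 600 bp. Members were also wide, with a median of 540 bp (300 to 780) in the control and 600 bp (350 to 900) in the PDS list, against 300 and 250 bp without a motif. The rule favours wide peaks, as a longer interval has more room to overlap a motif.

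The control member with the highest fold lay in ATP5MJ, the gene of a small subunit of mitochondrial ATP synthase. This peak was inside the annotated gene but in no intron of its transcript with the longest coding sequence. It spanned chr14:104387821-104388120 with a fold of 151.5 (rank 27 of the control list by fold), and the PDS peak that overlapped it had a fold of 33.9 (rank 1835). By p-value the site went the other way, from percentile 83.1 in the control to 91.4 in the PDS list. CACNA2D4, the gene of an auxiliary subunit of voltage-gated calcium channels, held a control member in intron 35 of 36 with a fold of 125.1 (rank 78), and its PDS counterpart had a fold of 27.1 (rank 4432), while by p-value it stood at percentile 86.8 and 96.5. Both sites were chosen for their control fold, so a lower rank by fold in the PDS list is no finding.

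MYO18A, the gene of an unconventional myosin, held one of the PDS members of highest fold (chr17:27475801-27476300, intron 2 of 41). Its fold was 75.5 (rank 30) in the PDS list and 59.7 (rank 2187) in the control list. A PDS member in TPCN2, which encodes a lysosomal cation channel, had a fold of 67.9 (rank 54) and a control counterpart of 92.4 (rank 373). The site in TPCN2 also lay within another annotated coding gene that had no symbol of its own. Members inside 2 or more coding genes made up 5.61% of the control and 5.78% of the PDS members.

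Most members had a single motif: 78.0% (1182) in the control and 77.5% (1327) in the PDS list. Exactly 2 motifs were found in 230 and 276 members, 3 motifs in 73 and 71, and 4 or more in 30 and 38. The highest counts were in HGFAC, the gene of a serine protease that activates hepatocyte growth factor, with 6 motifs in the control peak and 7 in the PDS peak, in PDLIM7, which encodes a PDZ and LIM domain protein, also with 6 and 7, and in TSC22D4, the gene of a leucine-zipper regulator, with 6 in both. Of these 3 peaks, that of HGFAC also held the CTCF consensus. Their control folds were 36.8, 46.2 and 54.6, at percentiles 74.2, 85.4 and 91.2 of that list, and their PDS folds stood at percentiles 41.4, 76.5 and 73.6.

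The motif did not mark the peak centre closely. The nearest motif lay at a median of 77 bp from the centre in control members (quartiles 25 and 165) and 85 bp in PDS members (27 and 197). The 200 bp at the centre touched a motif in 58.3% of control and 54.6% of PDS members, and the centre itself lay within a motif in 7.92% and 9.11%. A profile over all intronic peaks, with and without a motif, gave the background. Within 100 bp of the centre of shared peaks, 1.04% of bases were inside a motif in both lists. This share was 0.917% (control) and 0.900% (PDS) at 100 to 500 bp and still 0.823% and 0.813% at 1000 to 2000 bp. The density of motifs at shared intronic peaks was thus only slightly above that of the sequence around them. Around control-only intronic peaks it was 0.438% at the centre, 0.454% at 100 to 500 bp and 0.417% at 1000 to 2000 bp. Around PDS-only intronic peaks it was 0.828%, 0.743% and 0.843%. Single bins of these profiles rest on few motifs, and no test was made on them.

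**Figure D1:**
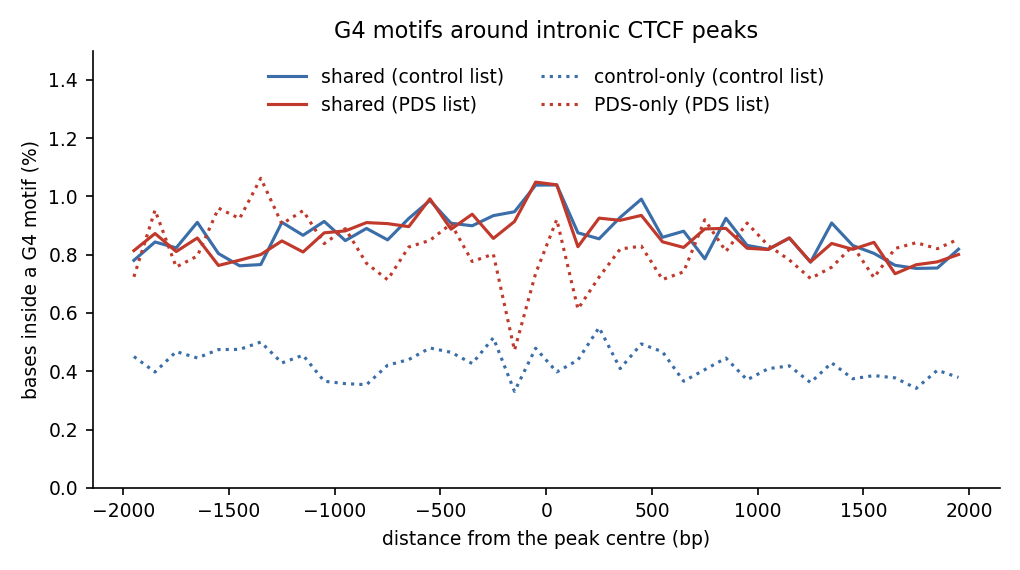
Percentage of bases inside a G4 motif (y axis) by distance from the centre of intronic CTCF peaks in bp (x axis, bins of 100 bp), for peaks shared by both lists (solid lines) and peaks of 1 list only (dotted lines) in the control (blue) and PDS (red) lists. The shared peaks reach 1.04% within 100 bp of the centre from 0.823% and 0.813% at 1000 to 2000 bp, the PDS-only peaks are at 0.828% at the centre, 0.743% at 100 to 500 bp and 0.843% at 1000 to 2000 bp, and the control-only peaks lie below all others, at 0.438%, 0.454% and 0.417%.

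The next comparison asked whether intronic sites with a motif were kept between the conditions, a site being kept, or shared, when it overlapped any peak of the other list. Of the 1515 control members, 1408 (92.9%, 91.5 to 94.1) were shared, compared with 8093 of 11280 intronic control peaks without a motif (71.7%, 70.9 to 72.6). Of the 1712 PDS members, 1554 (90.8%, 89.3 to 92.1) were shared, compared with 7933 of 10542 (75.3%, 74.4 to 76.1). The odds ratios were 5.18 (95% interval 4.24 to 6.33, adjusted p = 8.70e-86, Fisher's exact test) for control members and 3.23 (2.73 to 3.83, adjusted p = 4.30e-53) for PDS members, and the members' share was higher on 23 of 23 chromosomes in both. These p-values, like those below, are from two-sided Fisher's exact tests with Benjamini-Hochberg adjustment over 11 tests. They compare classes of peaks or motifs within 1 list, apart from the test of PDS-only against control-only peaks. None compares replicated samples. When the motif had to lie in the 200 bp at the peak centre, whatever the width of the peak, the odds ratios were smaller, 2.52 (2.06 to 3.07) for control and 1.29 (1.09 to 1.52) for PDS members. In the stronger 50% of each list by p-value that of PDS members was 1.51 (1.27 to 1.80). Sharing was there counted between the limited lists, so a peak whose partner lay in the weaker 50% of the other list counted as not shared.

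**Figure D2:**
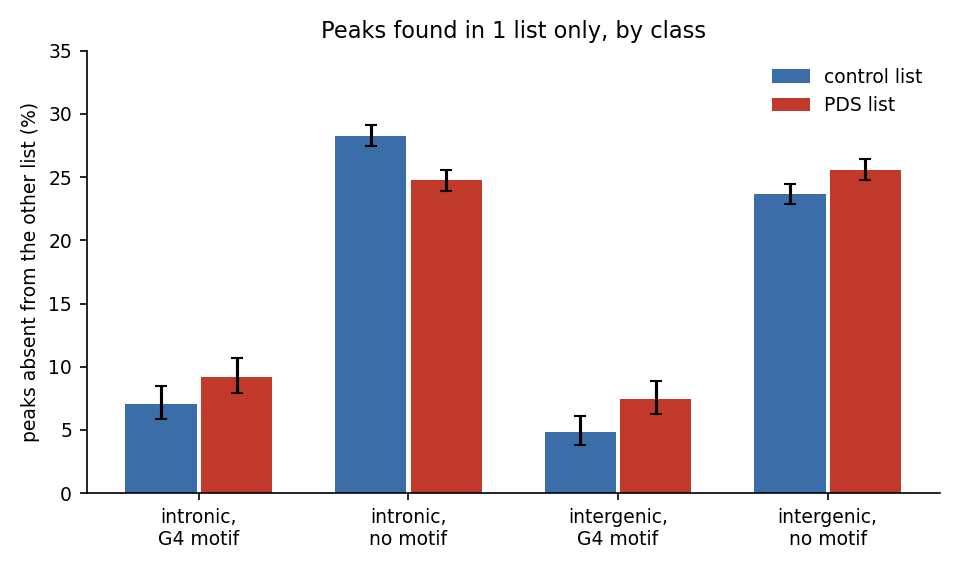
Percentage of peaks with no overlap in the other list (y axis) for intronic and intergenic peaks with and without a G4 motif (x axis), in the control (blue) and PDS (red) lists. Bars give the share and error bars its 95% Wilson interval. Intronic peaks with a motif stand at 7.06% and 9.23%, below the 28.3% and 24.7% of intronic peaks without one.

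Sharing rose with peak width, so the classes were also compared at matched width. In the control list, members were shared more often than other intronic peaks at each width: 43.2% against 34.3% at 120 bp, 75.2% against 57.2% above 120 and up to 200 bp, 92.1% against 77.0% above 200 and up to 300 bp and 99.6% against 85.3% above 500 and up to 600 bp. At 120 bp the intervals of the classes overlapped (33.0 to 54.1 and 32.2 to 36.5). The Mantel-Haenszel odds ratio over 9 strata of width was 3.83 (3.05 to 4.80). In the PDS list the differences went in both directions. Members were shared less often up to 120 bp (25.3% against 31.5%) and above 120 and up to 200 bp (66.5% against 70.1%). They were shared more often above 200 and up to 300 bp (91.7% against 87.2%) and nearly equally above 500 and up to 600 bp (99.5% against 99.1%). There the odds ratio over strata was 0.97 (0.78 to 1.20). Strata of p-value, in deciles of each list, gave 3.20 (2.54 to 4.04) for the control list and 0.85 (0.67 to 1.08) for the PDS list. Thus, with any overlap counted as shared, the higher sharing of PDS members was not seen over the strata of width, whereas that of control members was. With an overlap of 50% of both peaks required, the ratio at matched width was 1.29 (1.11 to 1.49) for PDS members. Whether the lists differed in this respect was not tested.

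**Figure D3:**
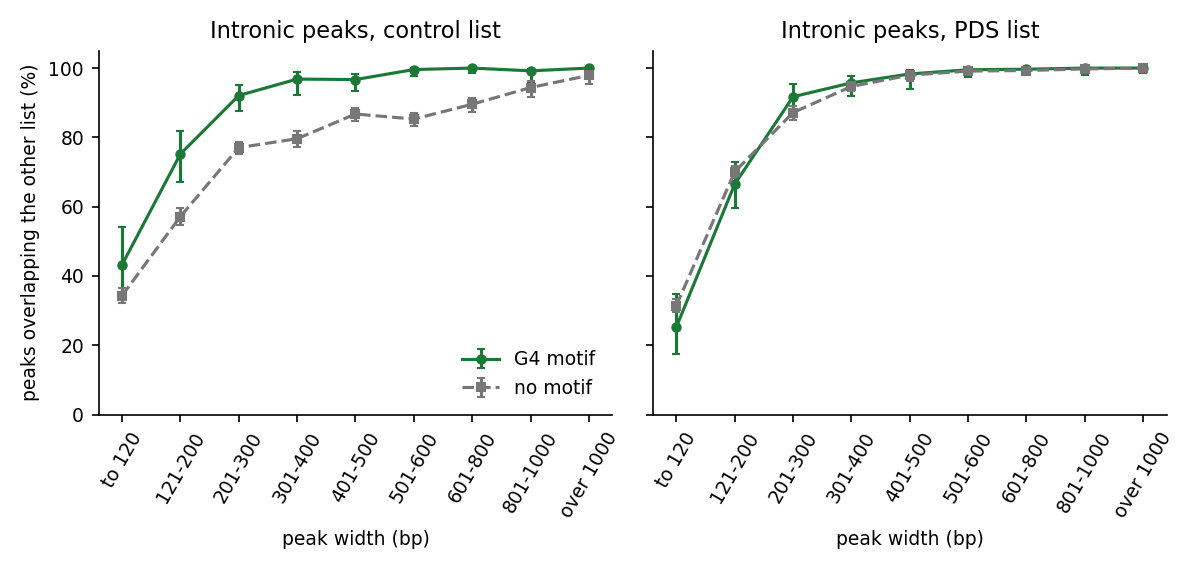
Percentage of intronic peaks that overlap a peak of the other list (y axis) by peak width in bp (x axis, 9 classes), for the control list (left) and the PDS list (right), with 95% Wilson intervals. Peaks with a motif (green circles) lie above those without (grey squares) in the control panel, for example 92.1% against 77.0% at widths above 200 and up to 300 bp. In the PDS panel they lie on either side, at 25.3% against 31.5% up to 120 bp and 91.7% against 87.2% above 200 and up to 300 bp.

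The sequence around the peaks also differed between the classes. The median GC content of the surroundings (500 to 2000 bp on either side) was 52.8% for control members and 52.9% for PDS members, but 44.4% and 46.2% for intronic peaks without a motif. Within 20 strata of this GC content, the odds ratio of being shared was 2.86 (2.32 to 3.52) in the control and 3.61 (3.04 to 4.29) in the PDS list. Without strata it was 5.18 and 3.23, so it was lower within strata in the control list and higher in the PDS list.

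Intergenic peaks with a motif were compared next. Control members were shared less often than these (92.9% against 95.1%, 1332 of 1400; odds ratio 0.67, 0.49 to 0.92, adjusted p = 0.0197 by Fisher's exact test), and the share was lower on 17 of 23 chromosomes. For PDS members, 90.8% stood against 92.6% (1457 of 1574), and the odds ratio of 0.79 (0.62 to 1.01) did not pass Fisher's exact test (adjusted p = 0.0847). At matched width both odds ratios were closer to 1 and their intervals included it, 0.92 (0.63 to 1.33) and 0.94 (0.68 to 1.30). These calls depended on the setting. That for control members was lost with a gap of up to 1 kb, an overlap of 50% or a distance of 5 kb from gene ends. In the stronger 50% of each list by p-value, with overlap counted between the limited lists alone, the ratios at matched width were 0.50 (0.32 to 0.77) and 0.64 (0.49 to 0.83). Without strata, PDS members passed the test in that subset, at 5 kb and with exons of coding genes alone left out.

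A minority of members was found in 1 list only, 107 (7.06%) in the control and 158 (9.23%) in the PDS list, where 22% of all control peaks and 21.4% of all PDS peaks had no overlap. These sites were narrow and weak. Their median width was 180 bp (control) and 150 bp (PDS), and 43.0% and 44.9% had the narrowest width of their list (120 and 100 bp). The 50% of peaks with the larger p-values held 87.9% of the control-only and 98.1% of the PDS-only members. Their median folds were 16.9 and 12.6, against 32.7 and 18.9 for shared members. A shared peak of the same list lay within 1 kb of 28 of the 107 control-only members (26.2%, 18.8 to 35.2) and of 81 of the 158 PDS-only members (51.3%, 43.5 to 58.9).

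The strongest control-only member by fold lay in intron 1 of PDXK, the gene of pyridoxal kinase, at chr21:45148801-45149100, with a fold of 44.5 (rank 5305). Its motif covered the peak centre. Intron 1 of SZRD1 held the next one (chr1:16693981-16694160, fold 36.1, rank 8918). Among PDS-only members, the strongest lay in intron 11 of COL15A1, which encodes a basement membrane collagen (chr9:101779151-101779300, fold 22.9, rank 7677), followed by one in the last intron of TTI1, whose product helps to mature large PI3K-related kinases (chr20:36621601-36621950, fold 21.9, rank 8719). In each list these were thus far from the strongest peaks, and by p-value all 4 were below the middle of their list.

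Motifs were more frequent among PDS-only intronic peaks, 158 of 2767 (5.71%, 4.91 to 6.64), than among control-only intronic peaks, 107 of 3294 (3.25%, 2.70 to 3.91). The odds ratio was 1.80 (1.40 to 2.32, adjusted p = 8.09e-06, Fisher's exact test), with the share higher on 15 of 23 chromosomes. It was 2.40 with loops of up to 12 nt and 2.34 with a gap of up to 1 kb counted as shared. In the stronger 50% of each list by p-value it was 3.82 (2.86 to 5.12). There a peak whose partner lay in the weaker 50% of the other list also counted as 1-list. That value therefore includes peaks that were shared in the full lists. The surroundings of the PDS-only intronic peaks were also richer in GC, with a median of 47.7% against 40.4%. Within 20 strata of that GC content the odds ratio was 0.84 (0.65 to 1.10), so the difference was not seen between peaks in sequence of like composition. The strata were run on the lists as deposited and not on those other settings. One-list peaks with a motif had nearly equal surroundings in both lists (52.3% PDS-only, 52.2% control-only). Those without a motif did not (47.5% and 40.2%).

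At sites present in both lists the ranks could be compared. One-to-one pairs, in which each peak overlapped exactly 1 partner, numbered 8829 with both peaks intronic, and 1180 of these had a motif in both peaks. By p-value, these 1180 stood higher in the PDS list by a median of 3.89 percentile points (quartiles -3.60 and 13.4), with 727 (61.6%) higher. By fold over IgG they stood lower by a median difference of -2.98 points (-26.2 and 14.9), with 522 (44.2%) higher. The measures thus gave opposite signs for the same pairs. At 5 kb from gene ends the shift by fold was -0.88 (-2.60 to 0.72), with the motif in the central 200 bp the shifts were -6.75 by fold and 6.46 by p-value, and in the stronger 50% of each list the shift by p-value was 1.92. The 7356 pairs without a motif had medians of 1.33 points by p-value and 4.73 by fold. Across the 1180 pairs, ranks by p-value were close in the lists (Spearman's rho 0.803) and ranks by fold much less so (0.388), the pairs sharing the samples and IgG of each list. The PDS peak was the wider one in 57.0% of pairs and the control peak in 38.4%.

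**Figure D4:**
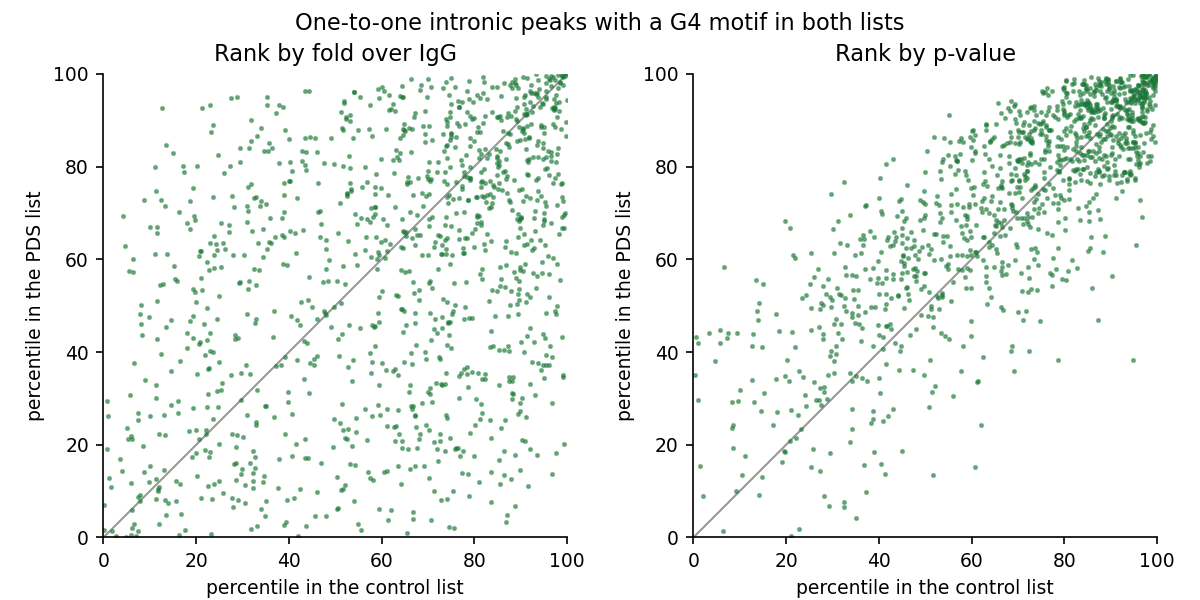
Percentile rank in the PDS list (y axis) against percentile rank in the control list (x axis) for the 1180 one-to-one pairs with a motif in both peaks, by fold over IgG (left) and by p-value (right, 100 being the smallest p-value). Each point is a pair and the line marks equal ranks. The points scatter widely by fold (rho 0.388) and lie along the line, more often above it, by p-value (rho 0.803).

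A motif in only 1 peak of a pair mostly went with the width of that peak, which follows in part from the rule, as both peaks lie on the same sequence. A motif in the PDS peak alone was found in 208 pairs, and in 94.7% of them the PDS peak was the wider. A motif in the control peak alone was found in 85 pairs, of which 84.7% had a wider control peak. In KDM4B, a histone demethylase gene, for instance, the PDS peak was 1350 bp wide and held 1 motif, and the control peak at chr19:5031541-5032020 held none.

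Single pairs moved far in rank by p-value, and the 4 largest rises and falls are given as a description. In IQSEC2, a synaptic exchange factor gene on chromosome X, the site stood at percentile 6.59 in the control and 58.4 in the PDS list, a rise of 51.8 points. IGF2R, the receptor of insulin-like growth factor 2, rose by 48.6 points in intron 46 of 47, from 19.7 to 68.3. MUC5B, the gene of an airway mucin, rose by 45.7 points and CELF4, the gene of an RNA-binding splicing regulator, by 44.3 points. By fold, IQSEC2 also stood higher in the PDS list (30.01 against 11.4), while IGF2R (39.8 against 66.4), MUC5B (15.6 against 54.2) and CELF4 (36.1 against 61.0) stood lower. The falls were in THRB, the thyroid hormone receptor beta gene, where the site went from percentile 94.8 to 38.2, and in OSBPL10 (60.7 to 15.2), APBA2 (78.7 to 38.2) and SMYD3 (87.3 to 46.9). By fold, each of these 4 sites stood higher in the PDS list, for THRB at 44.1 against 18.0. The measures thus went in opposite directions at 7 of the 8 sites, IQSEC2 being the exception.

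CTCF's own consensus, taken from ChIP-exo data, was searched in the 200 bp at each peak centre on both strands. It was present in 210 of 1515 control members (13.9%) and 1769 of 11280 intronic control peaks without a motif (15.7%), with an odds ratio of 0.87 (0.74 to 1.01) that did not pass Fisher's exact test (adjusted p = 0.0847). In the PDS list, 210 of 1712 members (12.3%) and 1190 of 10542 others (11.3%) had it, with an odds ratio of 1.10 (0.94 to 1.28, adjusted p = 0.235, both by Fisher's exact test). When each list was limited to its stronger 50% by p-value, the odds ratios were 0.75 (adjusted p = 0.00204) and 0.79 (adjusted p = 0.00830) by Fisher's exact test. In the PDS list the ratio went the other way with loops of up to 12 nt (1.16, exact test, adjusted p = 0.0255) and within strata of surrounding GC content (1.19, 1.01 to 1.40), so its direction there depended on the setting. The consensus was present in 14.6% of shared control members and 13.2% of shared PDS members. One-list members held it in 4 of 107 (3.74%, 1.46 to 9.22) and 5 of 158 cases (3.16%, 1.36 to 7.19). The gap from the consensus to the nearest motif had a median of 92 bp (control) and 98 bp (PDS), and both lay on the same strand in 48.1% and 50.5% of these members.

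The intronic G4 motifs with a peak were a small part of all. Of 156863 motifs with their centre in intronic sequence, 1884 (1.20%, 1.15 to 1.26) overlapped an intronic control peak and 2111 (1.35%, 1.29 to 1.40) a PDS peak. These motifs had a median length of 24 nt, 1 nt more than the others. A CpG was present in 53.0% of those in control peaks and 48.8% of those in PDS peaks, compared with 31.7% and 31.8% of the other intronic motifs. Motifs in which every loop was 1 nt long were less frequent inside peaks (3.56% and 3.36%) than elsewhere in introns (7.62% and 7.63%). A run of 5 or more G occurred in 39.5% and 39.6% inside peaks and in 45.1% outside. The 200 bp at the centre of members had a median GC content of 61.0% (control) and 59.5% (PDS), against 48.5% and 51.0% for intronic peaks without a motif. CpG-island composition (GC over 50% and an observed to expected CpG ratio over 0.6 in 500 bp) was found in 22.3% of control and 18.0% of PDS members, and in 3.40% and 3.36% of the others. Both measures are in part set by the rule, since a motif is itself rich in G and often lay in the same window.

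The strand of the motif relative to the gene was not used to choose the peaks. In control intronic peaks, 1012 of 1842 motifs (54.9%, 52.7 to 57.2) had their G-rich strand on the coding strand, compared with 75067 of the 152616 other intronic motifs (49.2%). In PDS intronic peaks it was 1140 of 2063 (55.3%, 53.1 to 57.4) against 74939 of 152395 (49.2%). These totals are below the 1884 and 2111 motifs in peaks given above, because motifs inside coding genes of both strands were left out of the comparison of strands. The odds ratios were 1.26 (1.15 to 1.38, adjusted p = 2.58e-06) and 1.28 (1.17 to 1.39, adjusted p = 1.55e-07) by Fisher's exact test, and the share was higher on 20 of 23 chromosomes in both lists. Within 20 strata of the distance from the gene start they were 1.19 (1.09 to 1.31) and 1.22 (1.12 to 1.33), and within 20 strata of surrounding GC content 1.13 (1.03 to 1.24) and 1.14 (1.04 to 1.24). Motifs in 1 peak, and peaks common to the lists, are not independent in these tests.

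Within genes, members lay nearer to the start than intronic peaks without a motif, at a median of 26915 bp (control) and 28736 bp (PDS) against 48547 and 43592 bp. Within 5 kb of the start lay 17.6% and 16.4% of the members, and over 50 kb away 35.5% and 37.03%. The introns were shorter too, with a median of 7448 and 6856 bp against 13448 and 12189 bp. Among peaks in genes of 2 or more introns, 322 of 1200 control members (26.8%) lay in the first intron, compared with 2082 of 9575 others (21.7%), an odds ratio of 1.32 (1.15 to 1.51, adjusted p = 0.000174, Fisher's exact test) that was above 1 on 19 of 23 chromosomes. For PDS members the shares were 23.7% (326 of 1374) and 22.1% (1954 of 8855), with an odds ratio of 1.10 (0.96 to 1.26, adjusted p = 0.192, both by Fisher's exact test). Within strata of surrounding GC content the odds ratio was 1.18 (1.02 to 1.36) in the control and 1.02 (0.89 to 1.17) in the PDS list. The PDS value depended on the setting, as it was 1.24 and passed the test in the stronger 50% of the list (exact test, adjusted p = 0.0102) and 0.999 at 5 kb from gene ends. Whether the lists differed was not tested. The pairs nearest to the limit of the rule were in SRCIN1 and PAQR4, at 1014 and 1010 bp from the nearest gene start or end.

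With each member assigned to the gene whose start was nearest, members were spread over 1269 host genes in the control and 1367 in the PDS list, and 1067 genes had one in both. Most of these genes held a single member (1078 and 1126), while 38 and 65 held 3 or more. GSE1 stood apart. This gene on chromosome 16 encodes a coiled-coil protein found in histone deacetylase complexes, and it held 13 control and 16 PDS members among 39 and 40 intronic peaks. Its introns contain 353 motifs over 507 kb. Of its members, 12 of the control and 14 of the PDS peaks were shared, with folds from 16.6 to 84.2 (control) and 7.10 to 40.7 (PDS). The motif nearest the centre had its G-rich strand on the coding strand in 10 of 13 and 13 of 16 of them.

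The other genes with the most members summed over both lists were LAMC3, CACNA1A and POU2F2. LAMC3, which encodes a laminin chain, held 5 in each list within 85.3 kb, of which 3 control and 5 PDS members were shared, and the motif nearest the centre was G-rich on the coding strand in 1 of 5 in both lists. CACNA1A, the pore-forming subunit of P/Q-type calcium channels, held 4 control and 5 PDS members. Its strongest had a fold of 84.1 (rank 557) in the control and 31.0 (rank 2654) in the PDS list and carried the CTCF consensus. POU2F2, the gene of the B-cell transcription factor Oct-2, also held 4 and 5 members, with control folds of 14.8 to 47.9 and PDS folds of 5.17 to 19.2.

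**Figure D5:**
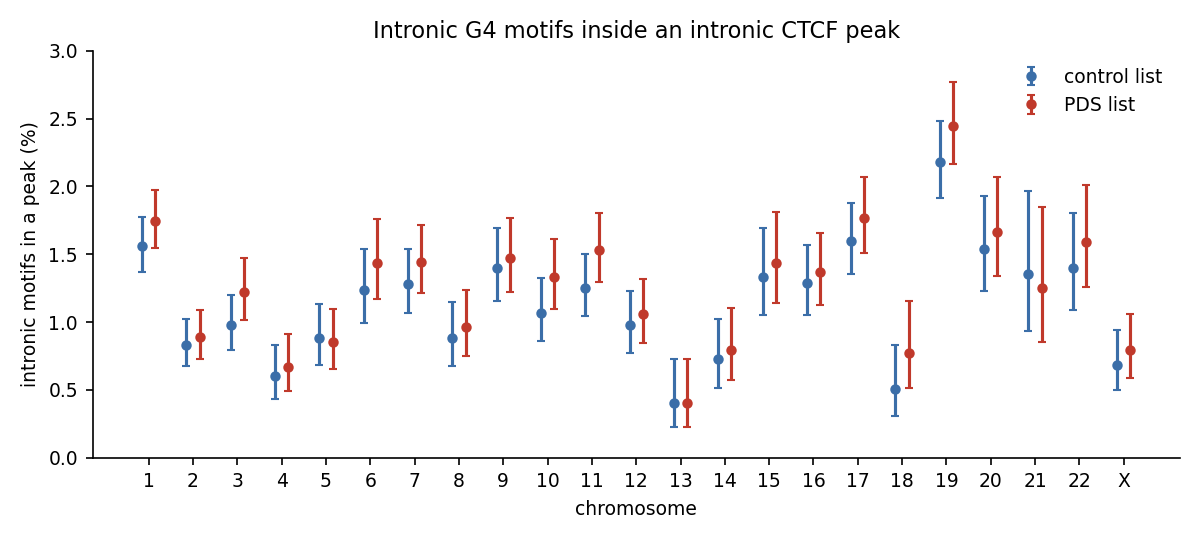
Percentage of intronic G4 motifs that overlap an intronic CTCF peak (y axis) on each chromosome (x axis), in the control (blue) and PDS (red) lists, with 95% Wilson intervals. Chromosome 19 stands highest at 2.18% and 2.45%, and chromosome 13 lowest at 0.407% in both lists.

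By chromosome, the share of intronic motifs that lay in a peak was highest on chromosome 19, at 2.18% (1.91 to 2.48) in the control and 2.45% (2.16 to 2.77) in the PDS list. That chromosome held 152 control and 175 PDS members, which were 24.3% and 25.5% of its intronic peaks. Chromosome 13 was lowest, with 0.407% (0.227 to 0.726) in both lists and 9 and 11 members. Chromosome 1 held the most members (187 and 211), and chromosome X had 26 and 31. Next in order came chromosome 17 with 1.60% (1.35 to 1.88) and 1.77% (1.51 to 2.07), whose interval did not reach that of chromosome 19 in either list. Below chromosome 17, the intervals of neighbours in this order overlapped.

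Lists of genes with a role in CTCF binding, chromatin and blood cells were then looked up. Here a gene counted when a member lay anywhere inside it, so that a member could count for more than 1 gene. Of 20090 coding genes, 6.69% had a control member, 7.24% a PDS member and 5.63% a member in both lists. Of genes with an intronic peak, 20.1% (control) and 24.1% (PDS) had one. A gene could hold several members, as HMGA1, LDB1 and GFI1B did, and the values below are those of the member with the highest PDS fold in each gene. Those described in DNMT1, GFI1B, CACNA1A and CACNA1E lay inside the gene but in no intron of its transcript with the longest coding sequence. Folds are given for each list on its own scale, control first, and their size is not comparable between the lists. Of 18 genes of CTCF, cohesin and their partners, YY1 alone had a member in both lists and MAU2 in 1 list. The peak in intron 1 of YY1, a zinc-finger factor that also links enhancers and promoters, had a fold of 44.1 in the control and 15.9 in the PDS list (percentiles 83.5 and 44.4 by fold, 58.5 and 79.1 by p-value), with 2 motifs in both. None of the 14 helicase genes known to unwind G4s had a member, although 3 of them had an intronic control peak and 2 an intronic PDS peak. Among 11 genes of high mobility group proteins, which bend DNA or loosen nucleosomes, HMGA1 alone had members, and the one described had folds of 26.9 and 12.5 with 3 motifs in each list.

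Of 14 DNA methylation genes, DNMT1 and UHRF1 had members in both lists, and DNMT3L and TET3 in 1. DNMT1 is the maintenance methyltransferase and UHRF1 the protein that brings it to hemimethylated sites. Their control folds of 20.6 and 20.7 lay at percentiles 30.8 and 31.1 of the list, and their PDS folds were 14.7 and 17.4. The peak in UHRF1 held the CTCF consensus. The motif in DNMT1 covered the centre of its PDS peak.

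Among 25 erythroid and blood transcription factors, 7 had a control member and 6 a PDS member, and those of GFI1B, LDB1, RUNX1, RUNX3 and ZBTB7A were in both lists. GFI1B, a repressor of erythroid and platelet precursors, had folds of 57.9 (control) and 24.9 (PDS). LDB1, the adaptor through which GATA1 complexes join distant enhancers, had 31.9 and 19.9. ZBTB7A, a silencer of fetal globin, had a control peak of fold 12.8 with 1 motif and a PDS peak of 21.7 with 2, at percentiles 12.4 and 72.8 by fold but 44.3 and 36.1 by p-value.

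Of 24 histone modifier genes, 7 had a control member, 7 a PDS member and 6 both, among them KDM2B, PRDM16 and KDM4B. KDM2B encodes a demethylase that binds unmethylated CpG, and its peak in intron 12 of 22 held the CTCF consensus and had folds of 57.3 and 30.9. PRDM16, a zinc-finger regulator of stem cells and fat, had 38.9 and 22.5, with 2 motifs in both peaks. Voltage-gated calcium channel genes are long and mostly silent in blood cells. Of 14 such genes, 6 had a control member, 7 a PDS member and 5 both (CACNA1A, CACNA1E, CACNA1H, CACNA1I and CACNB1), where 12 had an intronic peak in each list. CACNA1E had folds of 53.7 and 30.5, and CACNB1 27.5 and 25.1. Of 7 genes that the study singled out, SHANK1, a synaptic scaffold, and BDNF, a neurotrophin, had members in both lists. SHANK1 had folds of 56.3 (control) and 21.8 (PDS) in intron 23 of 24, and BDNF 52.6 and 15.5 in intron 1 of 2 with 2 motifs in both. By fold BDNF stood at percentile 89.99 of the control and 42.2 of the PDS list, and by p-value at 57.4 and 82.8. SHANK1 stood at 92.0 and 73.1 by fold and at 66.1 and 79.6 by p-value. These lists are short, their genes differ in length and in the number of intronic peaks, and a count in them describes those genes only.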

How the data were processed

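CTCF and IgG ChIP-seq libraries came from K562 cells, and the authors called peaks per condition with PePr on both CTCF samples over IgG. Submitters' processing notes name Bowtie2 2.2.3, SAMtools and deepTools 2.0. The deposited lists give a score, a fold ratio over IgG and a p-value with its adjusted p-value for each peak, with no counts. No p-value exceeded 9.997e-06 in either list, below the cutoff of 0.05 stated for the caller. Read layout and sequencer differ between the labels and the methods, and which is right was not tested.

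Of 33094 and 32917 peaks, 25 and 24 lay outside chromosomes 1 to 22 and X and were left out. Genes and exons were from GENCODE release 44 mapped to GRCh37. Motifs were matched left to right with the shortest loops first, giving 379594 on these chromosomes. Intron numbers refer to the transcript with the longest coding sequence, in which 80.3% of control and 81.3% of PDS members were intronic. The other members lay inside the annotated span of a gene and outside every exon, but in no intron of that transcript. Among them were the sites described in ATP5MJ, DNMT1, GFI1B, CACNA1A, CACNA1E, THRB and OSBPL10. Peaks were named by fixed rules: highest fold, 1 list only, most motifs, genes with most members, gene lists and largest rank changes. A site that these rules name is not reported here, so the sites of highest fold are shown in part. Members, rules and lists were chosen with earlier results of these data known.

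Shares carry Wilson 95% intervals. Fisher's exact tests were two-sided, with Benjamini-Hochberg adjustment over 11 tests. Strata used the Mantel-Haenszel estimate. Alternatives varied loops (up to 12 nt), the window, the overlap, the gap, exons, the distance from gene ends (5 kb), merging of peaks within 200 bp and the stronger 50% of each list by p-value. Strata of p-value, GC content and distance were chosen after seeing the data. Scripts were tested on simulated data. Python 3.11.15, numpy 2.4.6, pandas 2.3.3 and scipy 1.17.1 were used. No columns of samples outside the series were met (0).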

Additional observations from a re-analysis of the deposited data

How the results depend on the processing

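Of 156 recomputed values, 124 kept their direction and their side of the threshold, 9 moved, 11 became stronger, 3 became weaker and 9 reversed. The cause of these changes was not tested. Adjusted p-values are from Fisher's exact test. The odds ratios of sharing against intronic peaks without a motif (without strata, both lists), of the strand (both lists) and of the first intron in the control list kept direction and threshold in each alternative run. The size of some moved: sharing against intronic peaks without a motif ran from 2.52 to 6.03 (control) and from 1.29 to 3.88 (PDS). The motif in PDS-only against control-only peaks reached 3.82 in the stronger 50% of each list. In that setting overlap was counted between the limited lists, so 1-list peaks included some that were shared in the full lists.

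With loops of 1 to 12 nt the members numbered 2700 (control) and 3094 (PDS), the odds ratio of the consensus in the PDS list was 1.16 (exact test, adjusted p = 0.0255, Fisher's exact test), and that of sharing against intergenic peaks with a motif at matched width was 1.09 in the PDS list. With the motif in the 200 bp at the peak centre the members numbered 915 and 997, the consensus gave 0.71 (control, exact test, adjusted p = 0.00161) and 0.90 (PDS, exact test, adjusted p = 0.324), and the median rank shift was -6.75 by fold and 6.46 by p-value. With the whole motif inside the peak, sharing of PDS members at matched width had an odds ratio of 1.01.

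With each list limited to its stronger 50% by p-value, the consensus gave 0.75 (control) and 0.79 (PDS), the first intron 1.24 in the PDS list (exact test, adjusted p = 0.0102), and the rank shift by p-value 1.92. Sharing against intergenic peaks with a motif was there 0.65 in the PDS list (exact test, adjusted p = 0.000994) and at matched width 0.50 (control) and 0.64 (PDS). A peak whose partner lay in the weaker 50% of the other list counted as not shared in these values. With an overlap of 50% of both peaks, sharing of control members against intergenic ones gave 0.82 (exact test, adjusted p = 0.0806) and sharing of PDS members against intronic peaks without a motif at matched width 1.29. With a gap of up to 1 kb, sharing against intergenic peaks gave 0.78 in the control list and at matched width 1.09 (control) and 1.07 (PDS).

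With exons of coding genes alone left out, sharing of PDS members against intergenic ones gave 0.75 (exact test, adjusted p = 0.0353). At 5 kb from gene starts and ends this was 0.71 (exact test, adjusted p = 0.0411), with 0.75 in the control list (exact test, adjusted p = 0.170). There the consensus gave 0.82 in the control list (exact test, adjusted p = 0.0411), the first intron 0.999 in the PDS list, and the rank shift -0.88 by fold and 2.75 by p-value. Within strata of surrounding GC content, chosen after seeing the data, the consensus in the PDS list gave 1.19 and the motif in PDS-only against control-only peaks 0.84.

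No paired analysis was possible because the peak lists analysed here hold 1 call for both samples of a condition, and values per sample were not analysed here. For the same reason no replicate was left out. The lists hold no counts or values per sample, and so no spread between cultures, read depth or change in occupancy at a shared site was measured.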
